A study of Mus musculus with 6 samples.

Results

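The glutathione and antioxidant enzymes described here are 10 genes of the 31253 counted in a single-cell RNA sequencing study of mouse liver: the glutathione S-transferases Gsta3, Gsta4, Gstm1, Gstm2 and Gstp1, the glutamate-cysteine ligase subunits Gclc and Gclm, and Nqo1, Hmox1 and Txnrd1. They were taken by symbol from the gene table of the deposited matrices, and all 10 were found. The genes were chosen by their UMI levels in cell types and libraries of these data, seen in earlier results, so those levels are descriptions and carry no test. Livers came from 3 knockout mice (Stingfl/fl Cdh5-Cre+) and 3 control mice (Stingfl/fl Cdh5-Cre-), each labelled a biological replicate and sequenced as 1 library. Both groups carried the floxed Sting allele, both were kept on chow until 8 weeks of age, and both then received a western diet with carbon tetrachloride (CCl4) for 12 weeks, a model of metabolic dysfunction-associated steatohepatitis (MASH). No mouse without the diet and CCl4 was analysed here. The Cre transgene is driven by the promoter of Cdh5, a cadherin of endothelial cells, and such drivers can also recombine in blood cells that arise from endothelium; the labels do not say whether this Cre is inducible.

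Glutathione is the main small thiol of the cell and is especially abundant in liver. Glutamate-cysteine ligase, a pair of a catalytic subunit (Gclc) and a modifier subunit (Gclm), catalyses the rate-limiting step of its synthesis, and glutathione S-transferases join glutathione to electrophiles such as drug metabolites and the aldehydes of lipid peroxidation. Thioredoxin reductase (Txnrd1) keeps thioredoxin reduced, Nqo1 reduces quinones, and Hmox1 breaks down haem. Many of these genes are known targets of the transcription factor NRF2 (Nfe2l2), which KEAP1 holds at low levels until electrophiles modify it and which binds antioxidant response elements together with small MAF proteins. CCl4 is turned into reactive radicals by hepatocytes, and the liver's response to it has been studied through this pathway for decades.

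In GENCODE M21 (GRCm38) all 10 are protein-coding genes: Gsta3 lies at chr1:21240589-21265661 (plus strand), Gsta4 at chr9:78182774-78209349 (plus), Gstm1 at chr3:108012255-108017973 (minus), Gstm2 at chr3:107981702-107986453 (minus), Gstp1 at chr19:4035407-4037985 (minus), Gclc at chr9:77754535-77794485 (plus), Gclm at chr3:122245557-122270732 (plus), Nqo1 at chr8:107388225-107403206 (minus), Hmox1 at chr8:75093621-75100589 (plus) and Txnrd1 at chr10:82833951-82897712 (plus). Promoter windows of RefSeq (GRCm38.p6), each from 250 bases before to 50 bases after a start site, were found for 7 of the 10 genes, in 10 windows. The core of the antioxidant response element, searched on both strands as TGACNNNGC, was in a window of 3 of these 7 genes, against 13.99% of 27025 genes with a window and 21 of 85 other genes of the pathway (24.71%). The match begins 134 bases before the start site of Gclm, 121 before that of Gsta3 and 92 before a start site of Txnrd1 that lies within the gene. The other windows of Txnrd1, at chr10:82833701-82834000 and chr10:82860091-82860390, held no match. These windows, 5′ to 3′ on the plus strand (chr3:122245307-122245606, chr1:21240335-21240634 and chr10:82858956-82859255), are shown because they hold the match and because Gsta3 and Txnrd1 lead the genotype comparisons below; capitals mark the match, which reads on the minus strand in Gclm and Txnrd1.
Gclm: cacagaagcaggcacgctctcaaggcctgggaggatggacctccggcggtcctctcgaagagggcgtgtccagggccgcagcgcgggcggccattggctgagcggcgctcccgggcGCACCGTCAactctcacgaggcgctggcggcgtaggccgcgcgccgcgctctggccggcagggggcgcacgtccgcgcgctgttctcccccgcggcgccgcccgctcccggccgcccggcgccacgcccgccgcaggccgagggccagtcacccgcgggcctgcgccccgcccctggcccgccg
Gsta3: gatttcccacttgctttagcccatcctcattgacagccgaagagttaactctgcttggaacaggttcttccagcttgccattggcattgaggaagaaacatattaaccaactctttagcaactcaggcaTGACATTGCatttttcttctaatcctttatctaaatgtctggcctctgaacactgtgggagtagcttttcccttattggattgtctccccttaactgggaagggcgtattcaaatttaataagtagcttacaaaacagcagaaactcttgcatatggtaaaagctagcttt
Txnrd1: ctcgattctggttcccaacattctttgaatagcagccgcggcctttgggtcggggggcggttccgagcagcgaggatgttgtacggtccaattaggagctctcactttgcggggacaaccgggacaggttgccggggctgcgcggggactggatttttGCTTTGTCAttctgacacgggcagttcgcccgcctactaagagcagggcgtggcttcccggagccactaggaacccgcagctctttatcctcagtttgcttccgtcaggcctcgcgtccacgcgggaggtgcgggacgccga
A match is a description of these letters and no evidence of binding.

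The libraries held 55017937 to 73867890 UMIs (unique molecular identifiers, each standing for 1 captured RNA molecule) in 5133 to 9212 cell barcodes. After quality limits and removal of 938 called doublets, 41744 of 44656 barcodes were kept, and pairs of libraries shared 5 to 25 barcodes (0.0974% to 0.328%). By label the cells are liver sinusoidal endothelial cells, but only 2624 kept cells were endothelial-like by their transcripts, and T-like (11932) and B-like (8531) cells were the most numerous. Cells are named "-like" since the names rest on marker transcripts alone. The classes that matter most here were cholangiocyte-like (2282 cells, with 14 of 15 markers at 10 CPM or more, CPM being the UMIs of a gene per 1000000 UMIs of the class), mesothelial-like (2933 cells, 12 of 12), endothelial-like (14 of 14), stellate/fibroblast-like (1208 cells) and a myeloid group of 2267 cells, in which neutrophil-like cells (883) and conventional type 1 dendritic-like cells (cDC1, 899) outnumbered monocyte/macrophage-like cells (70). Hepatocyte-like cells numbered 37, with 16, 5 and 8 in the knockout libraries and 4, 3 and 1 in the control libraries, so their values rest on few cells. Sting1, the targeted gene, had 22.05, 15.01 and 21.98 CPM in knockout endothelial-like cells, against 27.3, 26.1 and 27.0 in control endothelial-like cells. The knockout libraries lay below the control libraries there, at a log2 fold change of -0.47 (SE 0.178), with adjusted p at 0.745 by edgeR's quasi-likelihood test, in a class where 13.9% of all genes did not overlap between genotypes. Lower fitted levels were not particular to endothelial-like cells: Sting1 had -0.72 (SE 0.228) in NK/ILC1-like and -0.60 (SE 0.209) in B-like cells, and 0.53 (SE 0.233) in cDC1-like cells, with adjusted p of 0.450, 0.770 and 0.772 (edgeR). Which exons the floxed allele removes is not given in the sources used here, and counts from 3′ ends can still read a transcript that lacks an inner exon.

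Levels in CPM count 3′ ends and are compared for 1 gene between classes. Values pool the 6 libraries, with ranges over libraries where stated.

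The alpha-class transferases marked hepatocyte-like, cholangiocyte-like and mesothelial-like cells. Gsta3, known in mouse liver for conjugating the epoxide of aflatoxin, stood at 897 CPM in hepatocyte-like cells, 195 in cholangiocyte-like cells and 111 in mesothelial-like cells, then 13.2 in stellate/fibroblast-like cells. It was at 1.56 or below in every other named class, and at 0 in monocyte/macrophage-like and cDC2-like cells. In each of the 6 mice Gsta3 was higher in cholangiocyte-like than in mesothelial-like cells, although the ranges over mice (133 to 280.0 and 61.5 to 168) overlapped. An unnamed set of 206 epithelial cells led by Serpina1b had 286, with a range over libraries of 162 to 444. Its marker score was 1.61 for hepatocytes and 1.33 for cholangiocytes, too close for a name. Gsta4, which acts on hydroxynonenal, an aldehyde of lipid peroxidation, had another order: 133 in mesothelial-like cells, 38.1 in hepatocyte-like cells, 21.2 in cholangiocyte-like cells and 5.77 in stellate/fibroblast-like cells. Mesothelial-like cells were above cholangiocyte-like cells in all 6 mice, and the ranges (92.3 to 168 and 13.1 to 36.6) did not overlap. The hepatocyte-like value of Gsta4 rests on 38 UMIs. In T-like cells Gsta4 read 3.57, but 207 of its 244 UMIs there came from knockout mouse 2.

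**Figure D1:**
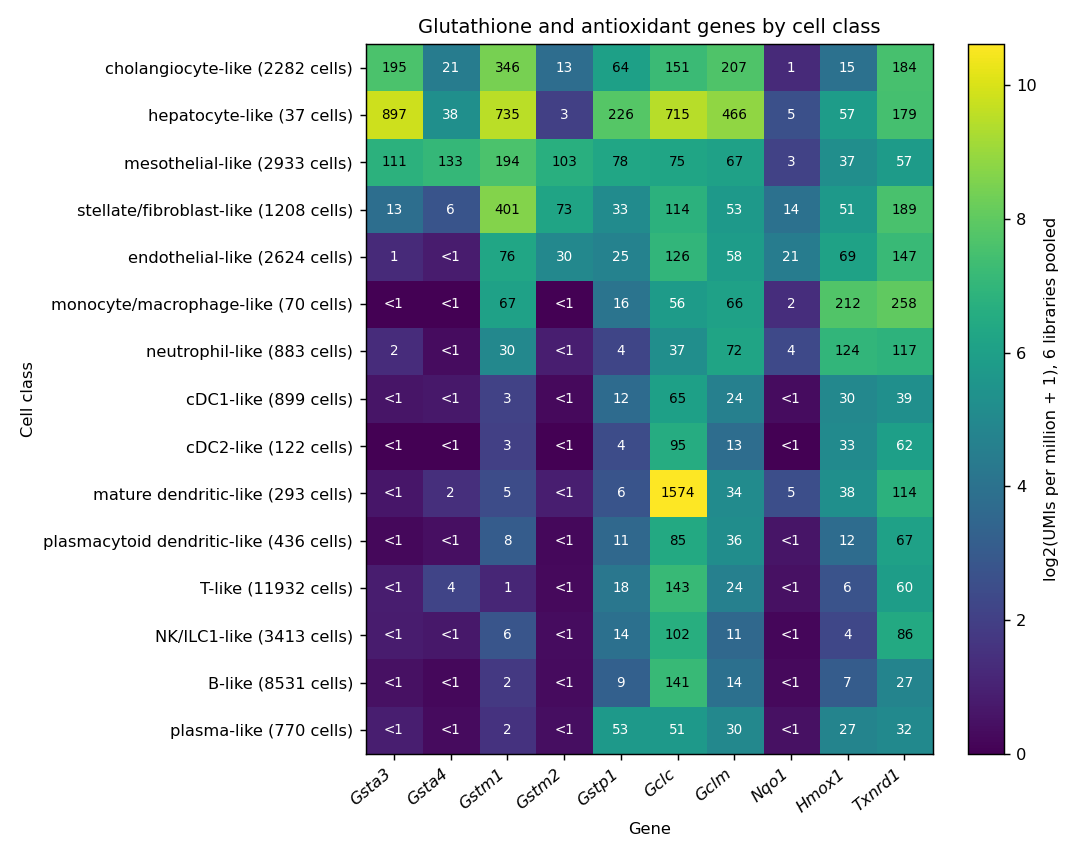
Level of the 10 genes in 15 named cell classes, as a heat map of log2(CPM + 1) pooled over 6 libraries, with the CPM printed in each cell of the map. Gsta3 and Gsta4 stand out in hepatocyte-, cholangiocyte- and mesothelial-like cells, Nqo1 in endothelial-like cells at 21.1, and Gclc in mature dendritic-like cells at 1574.

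The mu and pi classes spread further. Gstm1, a mu-class enzyme, stood at 735 in hepatocyte-like cells, 401 in stellate/fibroblast-like cells, 346 in cholangiocyte-like cells, 194 in mesothelial-like cells and 76.3 in endothelial-like cells. The ranges over mice of the stellate/fibroblast-like (331 to 553) and cholangiocyte-like (273 to 458) levels overlapped, so that these neighbours cannot be ordered. Gstm2, the neighbouring mu-class gene on chromosome 3, was instead highest in mesothelial-like cells (103, range 83.3 to 113), followed by stellate/fibroblast-like (73.4, range 56.8 to 101) and endothelial-like cells (30.4, range 25.02 to 34.7). It had only 12.9 in cholangiocyte-like cells and 3 UMIs in all hepatocyte-like cells. Gstp1, the pi-class enzyme, read 226 in hepatocyte-like, 78.0 in mesothelial-like, 64.3 in cholangiocyte-like and 52.8 in plasma-like cells, and the mesothelial-like and cholangiocyte-like ranges (38.0 to 139 and 43.2 to 88.2) overlapped. Of the 50-base words in the last 500 bases of its transcript, 75.2% also occur in Gstp2 or the pseudogene Gstp-ps, so its counts are uncertain, since reads may be split among these copies or lost. That share was 3.10% for Gstm2, 0.887% for Gstm1 and 0 for the other members.

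The subunits of glutamate-cysteine ligase were not distributed alike. The modifier Gclm followed the epithelial classes, at 466 in hepatocyte-like cells and 207 in cholangiocyte-like cells (range 185 to 233), then 72.2 in neutrophil-like, 66.8 in mesothelial-like and 65.8 in monocyte/macrophage-like cells. The catalytic Gclc was highest in mature dendritic-like cells, at 1574 (range 868 to 2661), above hepatocyte-like cells at 715 (range 296 to 1272), though those ranges overlapped. It was also present where the alpha- and mu-class transferases were near 0: 143 in T-like and 141 in B-like cells, close to 151 in cholangiocyte-like cells, with overlapping ranges over mice (110 to 172, 120 to 178 and 136 to 181). Mesothelial-like cells had 75.5, below cholangiocyte-like cells in each of the 6 mice.

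Nqo1, Hmox1 and Txnrd1, often measured together as NRF2 targets, peaked in different cells. Nqo1 was low everywhere; its highest level was 21.1 in endothelial-like cells, with 19.1 to 25.02 over mice, then 14.4 in stellate/fibroblast-like cells (5.70 to 19.7), against 1.41 in cholangiocyte-like and 3.30 in mesothelial-like cells. Its 5.01 in hepatocyte-like cells comes from 5 UMIs. Hmox1, also induced by haem, was highest in monocyte/macrophage-like cells (212, from 132 UMIs), then in neutrophil-like (124), endothelial-like (69.1), hepatocyte-like (57.1) and stellate/fibroblast-like cells (51.0), and it was lowest in NK/ILC1-like (3.84) and T-like cells (5.63). Among mice the monocyte/macrophage-like value ran from 48.9 to 635, so its place above neutrophil-like cells (71.5 to 224) is not settled by these libraries. Txnrd1 was the most evenly spread, from 258 in monocyte/macrophage-like cells, 189 in stellate/fibroblast-like, 184 in cholangiocyte-like, 179 in hepatocyte-like and 147 in endothelial-like cells down to 27.1 in B-like cells. The ranges of the first 5 of these overlapped.

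Shares of cells with a UMI come from the same counts as the levels and describe them per cell. With each cell thinned to 2000 UMIs, Gsta3 was detected in 28.8% of cholangiocyte-like cells (exact Clopper-Pearson 95% interval 26.9% to 30.7%), 18.3% of mesothelial-like cells (16.9% to 19.7%) and 75.0% of the 36 hepatocyte-like cells deep enough (57.8% to 87.9%). In T-like and B-like cells, which should lack it, the share was 0.166% and 0.0630%, the level that free RNA can give. Without thinning the shares were 76.8%, 67.6%, 100%, 0.461% and 0.199% at median depths of 14421, 17999, 26092, 5224 and 4807 UMIs per cell. Thinning left out 114 cholangiocyte-like, 96 mesothelial-like, 1065 T-like and 598 B-like cells, and these intervals cover counting error only. Gsta4 was detected in 21.2% of thinned mesothelial-like cells and 3.74% of cholangiocyte-like cells, against 0.138% of T-like cells. Gclc differed from these: its share in T-like cells was 19.3% and in B-like cells 19.7%, near the 23.2% of cholangiocyte-like cells, whereas 132 of 264 mature dendritic-like cells had it. Hepatocyte transcripts were set beside Gsta3. Per 100 UMIs of Apoa1, hepatocyte-like cells had 14.99 UMIs of Gsta3, cholangiocyte-like cells 5428 and mesothelial-like cells 7467. Per 1000 UMIs of Alb, the albumin gene, hepatocyte-like cells had 82.8 and cholangiocyte-like cells 82.3, while mesothelial-like cells had 13376. Cholangiocyte-like cells held 114698 UMIs of Alb but 174 of Apoa1, so the ratios to these transcripts differ, and the part of free hepatocyte RNA in the level of Gsta3 was not tested.

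Over the 15 named classes, the genes whose log2(CPM + 1) followed a member most closely were found by Pearson correlation among genes with 20 or more CPM in some class. The 15 points share libraries and differ in depth, so these values are descriptions. Gsta3 was most like Echdc2 (0.983) and Fads6 (0.981), and Gsta4 was most like Vnn1 (0.955) and Ephb6 (0.951). Gstm1 was nearest to Gzf1 (0.959) and 9530068E07Rik (0.954), and Gstm2 to the caveolar genes Cavin3 (0.990) and Cavin1 (0.986). Gstp1 was nearest to Cpox (0.952) and Eci1 (0.935), Gclm to Tbc1d24 (0.930) and Pxmp4 (0.925), and Gclc to Dnajc12 (0.879) and St3gal3 (0.874). For Nqo1 the nearest were Rnd1 (0.926) and Plod1 (0.893), for Hmox1 Tnfaip2 (0.905) and 6430548M08Rik (0.867), and for Txnrd1 Dhrs3 (0.894) and Fam20c (0.857). Among members, Gsta3 correlated with Gsta4 at 0.909 and with Gclm at 0.825, and Gstm1 with Gclm at 0.846. Gclc correlated with the other members at only -0.095 to 0.328.

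Members also varied within classes. Clusters and sub-clusters were drawn from the same counts, so the values below are descriptions. The 9 cholangiocyte-like sub-clusters had 142 to 269 CPM of Gsta3 and 99.5 to 269 of Txnrd1. Gsta3 was highest in a sub-cluster of 140 cells led by Ankrd1 and Kcnk1, of which 103 came from knockout and 37 from control mice. Gstm1 ran from 146 to 448 and was lowest in a sub-cluster of 62 cells led by Dmbt1 and Wfdc18. That sub-cluster had the most Gsta4, 126, against 12.5 to 24.4 in the other sub-clusters, but its value ran from 0 to 319 over libraries. Another sub-cluster (312 cells) is led by the hormone genes Pyy, Sst and Ppy, which came almost wholly from 1 cell; Epcam, an epithelial adhesion gene, was detected in 303 of the 312.

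Mesothelial-like cells fell into a main cluster of 2686 cells led by Kcnb2 and C4b and a cluster of 247 led by Lgals7 and Fndc1. The small cluster had more Gstm1 (324, against 187 in the main cluster) and Gclc (187), and slightly less Gsta3 (90.1, against 113) and Gsta4 (106, against 135). In endothelial-like cells the lymphatic cluster (330 cells, led by Ccl21a and Mmrn1) had the most Nqo1 (51.2) and Hmox1 (157) and 2 UMIs of Gstm2, while clusters led by Rspo3 and Selp (1173 cells) and by Mecom and Gja5 (1121 cells) had 19.8 and 11.7 of Nqo1, 48.1 and 60.6 of Hmox1, and 41.9 and 28.3 of Gstm2. Stellate/fibroblast-like cells led by Dpt and Lum, genes of fibroblasts (489 cells), had 34.4 of Gsta3 and 524 of Gstm1, against 1.44 and 333 in those led by Myh11 and Acta2, genes of contractile cells (719 cells).

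In the myeloid group 2 members were concentrated in sub-clusters. Gclc stood at 2329 in mature dendritic-like cells led by Il12b and Ccl22 (152 cells) and at 373 in those led by Fscn1 (141 cells). By library it was 1158, 3243 and 5044 in knockout mice and 1571, 2761 and 2226 in control mice for the Il12b-led cells. For the Fscn1-led cells it was 399, 493 and 154 in knockout mice and 228, 262 and 498 in control mice. In each of the 6 mice the Il12b-led cells were higher, and within each sub-cluster the genotypes overlapped. Hmox1 was 305 in neutrophil-like cells led by Il1b, Slc7a11 (the cystine carrier) and Acod1 (498 cells), 147 in those led by Retnlg and Mmp8 (233 cells) and 31.2 in those led by Chil3 and Camp, genes of immature neutrophils (152 cells). Over mice these ran from 162 to 630, from 39.2 to 205 and from 13.0 to 56.2.

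**Figure D2:**
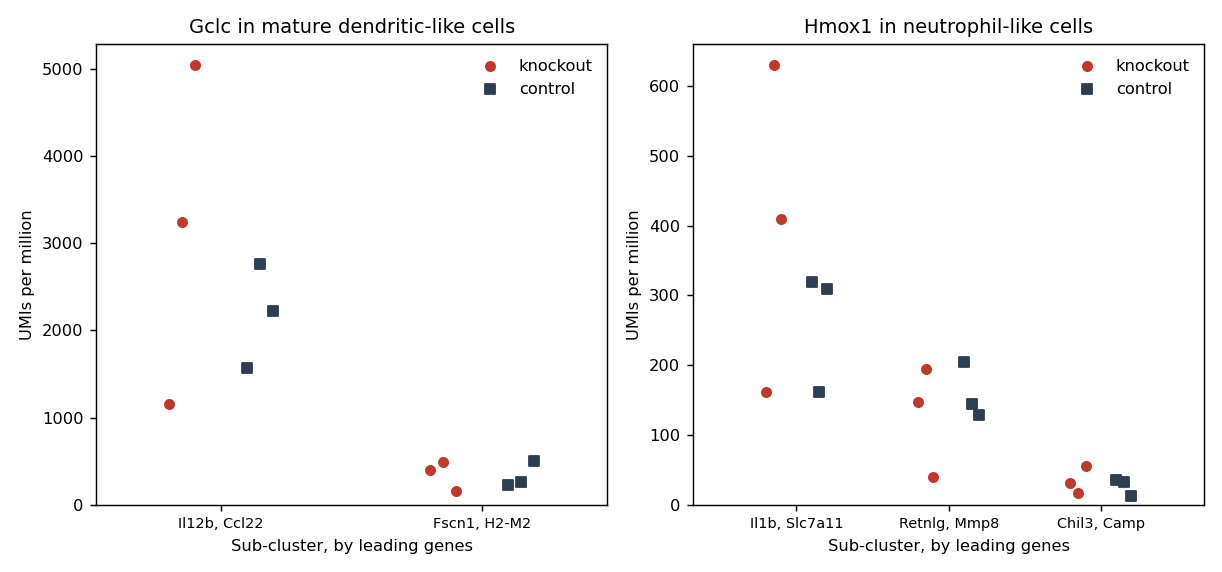
Gclc in 2 mature dendritic-like sub-clusters and Hmox1 in 3 neutrophil-like sub-clusters, in CPM with 1 point per mouse, knockout left of control. The Il12b-led dendritic-like cells lie between 1158 and 5044 and the Fscn1-led cells between 154 and 498, with knockout and control points mixed in each.

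Knockout and control were compared on UMIs summed per library within a class, fitted over all genes of the class by edgeR's quasi-likelihood test, with p adjusted over all of them by Benjamini-Hochberg and a threshold of 0.05. Log2 ratios and log2 fold changes are the fitted knockout level over the control level. The p-values below describe the differences and are not independent evidence, since the genes were chosen with earlier results of these data known.

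In cholangiocyte-like cells Gsta3, Gstm1, Hmox1 and Txnrd1 did not overlap between genotypes, with Gsta3 and Gstm1 higher and Hmox1 and Txnrd1 lower in knockout mice. Gsta3 stood at 280.0, 249 and 222 CPM in knockout mice and at 137, 133 and 175 in control mice. All knockout mice lay above all control mice, and the means were 250.5 ± 28.9 and 149 ± 23.2 (SD, n = 3 each). The log2 ratio was 0.77 (SE 0.132), with an adjusted p of 0.297 by edgeR's quasi-likelihood test, above the threshold. By the Wald test of DESeq2 its adjusted p was 9.73e-05, and by edgeR without control mouse 3 it was 0.0382. After thinning to 2000 UMIs per cell, 41.0%, 37.8% and 32.0% of knockout cells and 29.9%, 22.04% and 25.7% of control cells had a UMI of Gsta3. Gstm1 was 458, 382 and 365 in knockout mice and 341, 273 and 340.0 in control mice. Its log2 ratio was 0.36 (SE 0.129; adjusted p = 0.431, edgeR).

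Hmox1 was 12.5, 10.8 and 13.3 in knockout mice and 17.3, 15.5 and 18.5 in control mice, a log2 ratio of -0.44 (SE 0.158; adjusted p = 0.433, edgeR). Txnrd1 was 156, 182 and 162.6 in knockout mice and 274, 189 and 206 in control mice, a log2 ratio of -0.38 (SE 0.136; adjusted p = 0.432, edgeR), and of -0.21 without control mouse 1. For both, every knockout mouse lay below every control mouse. Gsta4 averaged 26.2 ± 8.93 in knockout and 18.3 ± 5.25 in control mice with overlap, at a log2 fold change of 0.53 (SE 0.287), or 0.24 without knockout mouse 2, and Gclc, Gclm, Gstm2, Gstp1 and Nqo1 lay between -0.17 and 0.19. None of the 10 members passed the threshold in cholangiocyte-like cells, as none of 13311 genes did (0%). At an unadjusted p under 0.05 there were 4 members and 1337 genes, and DESeq2 called 1 member and 32 genes. Groups of libraries that do not overlap were seen for 16.5% of all genes tested there, against 4 of the 10 members.

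Other measures moved with genotype in these cells, and their part in the result was not tested. The median UMI count per cell was 13798 to 21286 in knockout and 10590 to 16037 in control mice. The summed level of 20 dissociation and heat-shock genes was 51977 to 53338 CPM in knockout mice and 47312 to 50641 in control mice, though 9 of the 20 had a lower mean in knockout mice. The summed level of 16 hepatocyte markers, of which 8 reached 10 CPM and none was at 0, was 4849 to 5068 in knockout and 4396 to 4841 in control mice. Knockout cells were higher in Gsta3 in 9 of 9 sub-clusters, in Gstm1 in 9 of 9 and in Gsta4 in 7 of 9, and lower in Txnrd1 and Hmox1 in 7 of 9 each. Gstp1, whose mice overlap between genotypes in these cells, was also lower in knockout in 9 of 9, so such a tally occurs without separation of the mice. The 206 unnamed epithelial cells had Gsta3 at 444, 341 and 312 in knockout mice and at 249, 162 and 262 in control mice.

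**Figure D3:**
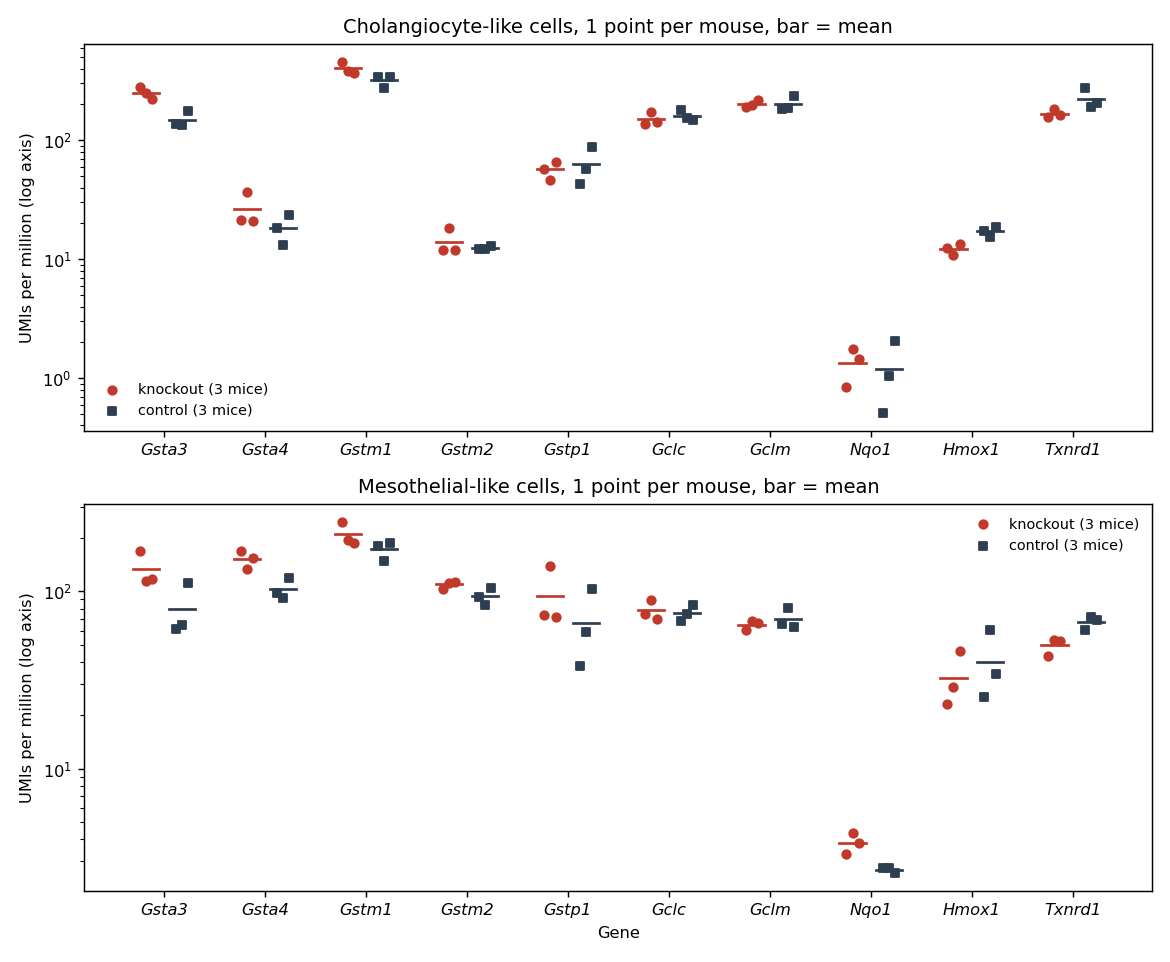
CPM of the 10 genes in cholangiocyte-like and mesothelial-like cells, on a log axis, with 1 point per mouse and a bar at the mean of 3 mice, knockout left of control. In cholangiocyte-like cells the knockout points of Gsta3 (222 to 280.0) lie above the control points (133 to 175), and those of Txnrd1 (156 to 182) lie below (189 to 274).

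In mesothelial-like cells Gsta3, Gsta4 and Nqo1 were higher and Txnrd1 lower in every knockout mouse than in any control mouse. Gsta4 was 168, 134 and 154 in knockout mice and 98.0, 92.3 and 119 in control mice, with means of 152 ± 17.3 and 103 ± 14.3 (SD, n = 3 each). Its log2 ratio was 0.54 (SE 0.131; adjusted p = 0.126, edgeR), and DESeq2 gave an adjusted p of 0.0195. Gsta3 was 168, 114 and 117 in knockout mice and 61.5, 65.0 and 111.6 in control mice. The nearest knockout and control mice were 114 and 111.6, and the log2 ratio was 0.72 (SE 0.297; adjusted p = 0.298, edgeR; 0.0482, DESeq2). Txnrd1 was 43.0, 53.3 and 52.7 in knockout mice and 60.4, 71.2 and 68.7 in control mice, a log2 ratio of -0.45 (SE 0.120; adjusted p = 0.135, edgeR; 0.0491, DESeq2). Nqo1 was low, at 3.81 ± 0.507 in knockout and 2.68 ± 0.0997 in control mice.

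Gstm1 averaged 210 ± 32.6 in knockout and 173 ± 21.3 in control mice, and Hmox1 32.6 ± 11.8 and 40.2 ± 18.5, both with overlap. Gstp1 ranged over 71.3 to 139 in knockout and 38.0 to 103 in control mice, and Gclc and Gclm had log2 fold changes of 0.03 and -0.11. Of the 10 members in mesothelial-like cells, 0 were called, as for 0 of 13471 genes (0%). At an unadjusted p under 0.05 there were 2 members and 2294 genes, and DESeq2 called 3 members and 301 genes. The 4 members without overlap stand beside 23.2% of all genes tested in these cells. All 20 dissociation and heat-shock genes had a lower mean in knockout mesothelial-like cells, with summed levels of 25373 to 32673 in knockout and 29295 to 54060 in control mice. Median UMIs per cell were 18757 to 22161 in knockout and 12091 to 17579 in control mice. The median mitochondrial share was 1.86% to 2.25% in knockout and 1.63% to 1.76% in control mice. The part of these measures in the result was not tested. In the main cluster Gsta4 was 156 in knockout and 104 in control cells, and in the small cluster 135 and 84.3.

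The difference between the genotype effects of the 2 classes was fitted with the mouse as a block. No member passed the threshold, 0 had an unadjusted p under 0.05 by edgeR and DESeq2 called 0, while 1 of 14827 genes (0.00674%) was called by edgeR's quasi-likelihood test and 6 by DESeq2. The effect in cholangiocyte-like minus that in mesothelial-like cells was 0.04 (SE 0.156) for Gsta3, 0.02 (SE 0.335) for Gsta4, 0.11 (SE 0.101) for Gstm1 and 0.09 (SE 0.209) for Txnrd1 on the log2 scale. Both classes come from the same 6 mice. The widest difference was that of Gstp1, -0.54 (SE 0.397), whose counts are uncertain.

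**Figure D4:**
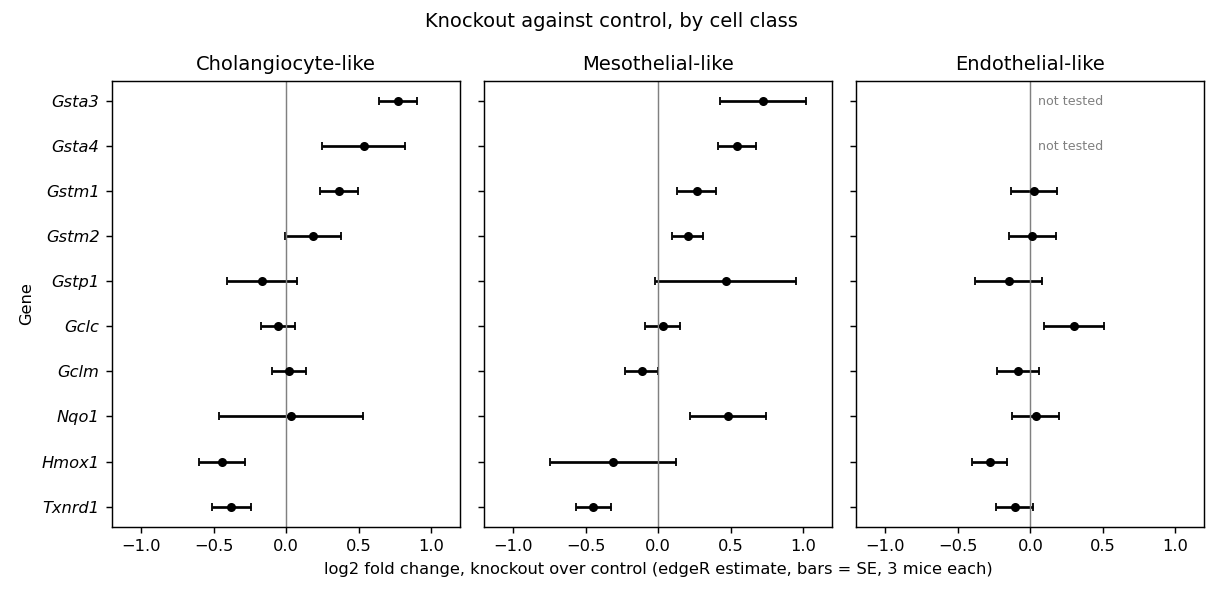
Log2 fold change of knockout over control with its standard error for each member in cholangiocyte-, mesothelial- and endothelial-like cells, by edgeR on sums of 3 knockout and 3 control libraries. Gsta3 lies at 0.77 and 0.72 in cholangiocyte- and mesothelial-like cells and Txnrd1 at -0.38 and -0.45; Gsta3 and Gsta4 were too low to be tested in endothelial-like cells.

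Hepatocyte-like cells gave no planned test, since only knockout mouse 1 had 10 or more of them. Gsta3 was 1124, 811 and 741 in knockout mice and 536, 962 and 799 in control mice, with overlap. Gstm1 (937, 486 and 505 in knockout; 586, 946 and 954 in control) and Gclc (740.4, 296 and 641 in knockout; 1272, 694 and 722 in control) also overlapped. Hmox1 was 54.1, 28.0 and 47.0 in knockout mice and 100.1, 78.9 and 77.3 in control mice, and Txnrd1 was 167, 106 and 147 in knockout mice and 222, 410.1 and 258 in control mice. Both lay lower in every knockout mouse, on 1 to 16 cells a mouse, and 14% of the 2943 genes fitted in these cells did not overlap. In a fit without a minimum of cells, added after the data were seen, Txnrd1 had a log2 ratio of -0.88 (SE 0.394; adjusted p = 0.512, edgeR) and Gsta3 one of 0.42 (SE 0.334). These cells differed in their own markers too: Apoa1, a plasma lipoprotein gene, ran from 155 to 10988 CPM over the 6 mice, and it was higher in every knockout mouse.

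In the pooled myeloid group 6 members were abundant enough to test. Gstm1 was 26.8, 13.9 and 5.41 in knockout mice and 3.89, 6.81 and 6.11 in control mice, with overlap, and its log2 ratio was 1.52 (SE 0.567; unadjusted p = 0.0275, adjusted p = 0.691, edgeR). Gclm was 60.9, 37.0 and 32.8 in knockout mice and 24.3, 32.0 and 30.7 in control mice, without overlap, and its log2 ratio was 0.62 (SE 0.291; adjusted p = 0.691, edgeR). Knockout mouse 1 was the highest for both genes, and without it the log2 ratio was 0.69 for Gstm1 and 0.19 for Gclm. Of the 883 neutrophil-like cells, 289 came from knockout mouse 1 and 265 from control mouse 3, which was low in both genes. With neutrophil-like cells left out, an alternative added after the data were seen, the log2 ratio was 0.82 (SE 0.517) for Gstm1 and 0.11 (SE 0.184) for Gclm. None of the 6 members was called, as none of 10629 genes was (0%). At an unadjusted p under 0.05 there were 1 member and 728 genes, and DESeq2 called 0 members and 13 genes. Among all genes 10.7% did not overlap there.

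By myeloid class, Gstm1 in neutrophil-like cells was 40.1, 24.3 and 20.4 in knockout mice and 17.4, 11.6 and 13.5 in control mice, a log2 ratio of 0.96 (SE 0.434; adjusted p = 0.955, edgeR), where 8.25% of genes did not overlap. Without knockout mouse 1 that ratio was 0.50. Gstm1 differed between the neutrophil-like sub-clusters, at 47.7 in the Chil3-led, 18.6 in the Il1b-led and 2.31 in the Retnlg-led cells, and the Chil3-led cells numbered 85, 18 and 12 in knockout mice and 11, 19 and 7 in control mice. Within the Chil3-led cells Gstm1 was 56.7, 39.0 and 23.4 in knockout mice and 28.3, 19.8 and 13.0 in control mice, with overlap. The part of this makeup in the result was not tested. Hmox1 in the same cells was 71.5, 224 and 131 in knockout mice and 139, 81.5 and 223 in control mice. Gclc in mature dendritic-like cells was 965, 1661 and 2661 in knockout mice and 868, 2021 and 1732 in control mice. Neither separated the genotypes. In plasmacytoid dendritic-like cells, outside the pooled group, Gclm was 37.3, 25.7 and 31.0 in knockout mice and 38.1, 46.2 and 38.1 in control mice, without overlap, beside 9.58% of genes there. Its fitted change was -0.37 on the log2 scale (SE 0.266; adjusted p = 0.997, edgeR). That class joins 245 cells led by Dntt and Nrgn (Gclm 37.4) and 191 led by Siglech (32.8), with marker scores of 1.44 and 3.07. The Dntt-led cells numbered 47, 44 and 40 in knockout mice and 37, 56 and 21 in control mice. The Siglech-led cells numbered 74, 21 and 28 in knockout mice and 23, 25 and 20 in control mice. With called doublets kept, a cluster of 256 cells led by Dntt and Nrgn stayed unnamed. The part of this mix was not tested. In monocyte/macrophage-like cells, with 2 to 26 cells a mouse, Hmox1 was 48.9, 635 and 434 in knockout mice and 539.9, 96.5 and 310.0 in control mice.

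In endothelial-like cells, the cells in which the Cre is driven, Hmox1 was the only tested member whose genotypes did not overlap. Hmox1 was 62.6, 57.4 and 69.1 in knockout mice and 74.7, 79.0 and 69.5 in control mice, a log2 ratio of -0.28 (SE 0.122; unadjusted p = 0.0486, adjusted p = 0.745, edgeR). The nearest knockout and control mice were 69.1 and 69.5, and 13.9% of all genes tested in these cells did not overlap. Gsta3, too low to be tested, averaged 0.602 ± 0.108 in knockout and 1.91 ± 1.11 in control mice. Nqo1 was 22.9, 25.02 and 19.3 in knockout mice and 24.1, 19.1 and 20.2 in control mice, and Gclc was 124, 199 and 114 in knockout mice and 105, 107 and 128 in control mice. Of 8 members tested 0 were called, as for 0 of 12200 genes (0%); 1 member and 813 genes had an unadjusted p under 0.05, and DESeq2 called 0 members and 12 genes. All 20 dissociation and heat-shock genes had a lower mean in knockout endothelial-like cells. The lymphatic cluster, with Hmox1 at 157, gave 29, 29 and 40 of 453, 236 and 529 endothelial-like cells in knockout mice. In control mice it gave 47, 151 and 34 of 207, 650 and 549. The part of the stress genes and of this makeup in the result was not tested.

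Over whole libraries, Gsta4 was 34.7, 27.7 and 40.9 in knockout mice and 14.6, 18.2 and 25.04 in control mice, without overlap, beside 7.3% of all genes. Its log2 ratio was 0.82 (SE 0.234; unadjusted p = 0.0103, adjusted p = 0.9999, edgeR). In such a sum, more cells of a type and more RNA per cell cannot be told apart, and mesothelial-like cells, which hold 8131 of its 10112 UMIs, numbered 591, 309 and 688 in knockout mice and 353, 589 and 403 in control mice. Gsta3 was 65.4, 49.6 and 78.3 in knockout mice and 15.7, 43.4 and 59.9 in control mice, with overlap. Control mouse 1, the lowest for Gsta3, had 97 cholangiocyte-like cells. No member of 10 and no gene of 18360 was called (0%), with 1 member and 483 genes at an unadjusted p under 0.05 and 0 members and 20 genes by DESeq2. In T-like cells Gclc averaged 125 ± 14.4 in knockout and 155 ± 15.8 in control mice without overlap (log2 fold change -0.32, SE 0.108; adjusted p = 0.868, edgeR), where 9.42% of genes did not overlap. In these cells the dissociation and heat-shock genes summed to 22076 to 26943 in knockout and 29048 to 30103 in control mice. The median mitochondrial share was 1.82% to 2.38% in knockout and 1.55% to 1.81% in control mice. Gclc also differed between T-like clusters, at 364 in 1107 cells led by Il23r and Cd163l1 and 70.7 to 155 in the others. The Il23r-led cells gave 123, 145 and 118 of 1353, 1893 and 1895 T-like cells in knockout mice. In control mice they gave 268, 348 and 105 of 3224, 2694 and 873. The part of these measures and of this makeup in the difference was not tested.

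None of the other 95 genes of these pathways was called by edgeR with its filter on low counts; without that filter edgeR called 1 in cholangiocyte-like and 4 in mesothelial-like cells. In cholangiocyte-like cells 85 were tested, 62 with a higher and 23 with a lower fitted level in knockout mice, with a median log2 fold change of 0.14 against 0.00 over all genes tested; 17 higher and 1 lower had an unadjusted p under 0.05, and DESeq2 called 1. In mesothelial-like cells 54 of 82 were higher and 28 lower (median 0.15), 19 higher and 6 lower at an unadjusted p under 0.05, and DESeq2 called 6. Over all genes tested, 49.7% were higher in cholangiocyte-like and 49.8% in mesothelial-like cells, where the median was -0.001. Genes of a family were measured in the same 6 mice, so the counts below are descriptions. The part of depth and of the dissociation and heat-shock genes in them was not tested. For the members themselves the median was 0.03 in cholangiocyte-like and 0.23 in mesothelial-like cells. Other glutathione S-transferases were higher in knockout for 12 of 14 in cholangiocyte-like cells (median 0.25) and for 13 of 13 in mesothelial-like cells (median 0.30). Enzymes that remove peroxide and superoxide were higher for 12 of 15 in cholangiocyte-like and 13 of 15 in mesothelial-like cells, and genes of the thioredoxin system for 4 of 6 and 5 of 6. Genes of glutathione synthesis, supply and turnover were higher for 7 of 12 and 8 of 12, those of NADPH supply for 5 of 6 and 3 of 6, those of haem and iron handling for 6 of 7 and 5 of 7, and other drug metabolism and NRF2 target genes for 12 of 15 and 6 of 13. Regulators of NRF2 were higher for 4 and lower for 6 in cholangiocyte-like cells, and higher for 1 and lower for 9 in mesothelial-like cells (median -0.23). That list joins Nfe2l2 and its small MAF partners with genes that act against NRF2, such as Keap1, so its counts give no direction for NRF2 activity.

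By the rule for naming pathway genes, Osgin1, a growth inhibitor induced by oxidative stress, averaged 922 ± 130 in knockout and 627 ± 95.1 in control cholangiocyte-like cells, a log2 ratio of 0.59 (SE 0.139; adjusted p = 0.297, edgeR). Txnip, which binds thioredoxin, averaged 1633 ± 339 and 1163 ± 134 (log2 fold change 0.51). On the lower side, Abcc1, an exporter of glutathione conjugates, averaged 46.6 ± 6.91 in knockout and 65.9 ± 5.67 in control cells, and Bach2, a repressor related to BACH1, 167 ± 26.7 and 212 ± 49.5. In mesothelial-like cells Hmox2, the constitutive haem oxygenase, averaged 62.2 ± 2.75 in knockout and 42.8 ± 1.27 in control mice, a log2 ratio of 0.52 (SE 0.0945; adjusted p = 0.110, edgeR). Prdx3, the mitochondrial peroxiredoxin, averaged 52.0 ± 4.06 and 36.8 ± 3.90. Abcc1 was again lower, at 38.3 ± 0.908 in knockout and 55.8 ± 7.24 in control mice, and Cul3, the ubiquitin ligase scaffold that works with KEAP1, averaged 135 ± 14.8 and 166 ± 0.452.

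In the pooled myeloid group 40 of 63 pathway genes were higher and 23 lower, 6 and 0 of them at an unadjusted p under 0.05, and DESeq2 called 0. Over all genes tested in this group 50.4% were higher. The enzymes that supply NADPH were higher for 5 of 5 (median log2 fold change 0.84). Mgst1, a microsomal transferase, averaged 110 ± 92.2 in knockout and 34.4 ± 6.51 in control mice, with a log2 ratio of 1.73 (SE 0.622; adjusted p = 0.691, edgeR), and Pgd, the phosphogluconate dehydrogenase, averaged 114 ± 67.6 and 52.2 ± 5.50. Both SDs were larger in knockout mice. Neutrophil-like cells of the group numbered 289, 132 and 80 in knockout mice and 65, 52 and 265 in control mice. Without knockout mouse 1, 38 of 64 pathway genes were higher, at a median log2 fold change of 0.04 against 0.11 with all mice. The part of this makeup in these values was not tested. In endothelial-like cells 44 of 77 were higher and 33 lower, with 6 and 2 at an unadjusted p under 0.05. Of those 6 higher genes, 3 belong to the thioredoxin system, in which 4 of 6 genes were higher (median log2 fold change 0.25). Only genes of the lower side, the smaller one, are named here, so the names do not show the direction of the list. Gpx1, the main cytosolic glutathione peroxidase, averaged 217 ± 10.7 in knockout and 280.4 ± 37.7 in control endothelial-like cells (log2 fold change -0.42, SE 0.126; adjusted p = 0.745, edgeR). Maff, a small MAF protein that partners NRF2, averaged 186 ± 27.7 and 294 ± 71.5.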

How the data were processed

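Livers of 6 mice were dissociated and sequenced as 10x Genomics 3′ libraries, per the labels' protocols. The deposited matrices hold raw counts of UMIs per gene and barcode, made with Cell Ranger 7.1.0 against mm10, per the submitters' processing notes, which also name Seurat 4.1.1. The annotation release and the counting of introns are not given in the sources used here. Groups and replicate numbers were taken from the sample titles, and in no class did all 3 same-numbered pairs deviate together at a correlation over 0.1, so no pairing was used.

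Quality limits of 300 genes or more and 20% mitochondrial UMIs or less left 42682 barcodes. Scrublet (expected rate 0.06) scored doublets; its automatic threshold worked in 4 libraries, and 1 limit of 0.2667 based on those was applied to all, a choice made with the scores known. Counts were scaled per cell and log transformed, and 3000 variable genes, 40 components and 20 neighbours gave Leiden clusters at resolution 1 (Python 3.11.15, scanpy 1.11.5, leidenalg 0.10.2). A second round was run within the pooled clusters that scored highest for epithelial lists, and within those that scored highest for myeloid lists. The 56 clusters were named from marker lists by a mean score of at least 1.0 (0.6 for lymphoid lists) with a margin of 0.3, limits set after the scores were seen. Of the kept cells, 5311 in 15 clusters stayed unnamed.

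Raw counts were summed per library and class, with at least 10 cells, and tested with edgeR 4.0.16 in R 4.3.3 (TMM, filterByExpr, robust quasi-likelihood F-test, Benjamini-Hochberg over all genes tested, threshold 0.05), with DESeq2 1.42.0 as an alternative. An adjusted p that DESeq2 did not give was left out. CPM values are raw counts over all counts of the class, with no TMM scaling, and values after ± are standard deviations. The scripts were tested on simulated data. The 10 genes, the pathway and marker lists and the tests were chosen with earlier results of these data known. Of the pathway list, the text names genes past the threshold, and where fewer than 2 passed in a direction, up to 2 of smallest unadjusted p in that direction with a mean log2 level of at least 4. For the pooled myeloid group only genes of the higher side are named, and for endothelial-like cells only genes of the lower side. The names therefore do not show how the lists of these groups differ. The dissociation and heat-shock list was chosen after the data were seen.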

Additional observations from a re-analysis of the deposited data

Results flagged for a closer look

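Gstm1 had a high level in cells that enter the comparison of whole libraries but no comparison within a class. An unnamed cluster of 125 cells led by Elane, Ctsg, Mpo and Prtn3, genes of neutrophil precursors, had 437.9 CPM of Gstm1 pooled over libraries. This was above the 346 of cholangiocyte-like cells and every other named class except hepatocyte-like cells, at 735. The level of that cluster by library follows. It was 462, 336 and 296 in knockout mice and 473, 173 and 286 in control mice, so the genotypes overlapped. Of the 125 cells, 83, 5 and 7 came from knockout mice and 18, 9 and 3 from control mice.

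Gclm lay on opposite sides of the control mice in 2 cell groups. It lay above every control mouse in knockout cells of the pooled myeloid group (60.9, 37.0 and 32.8 in knockout; 24.3, 32.0 and 30.7 in control). It lay below every control mouse in knockout plasmacytoid dendritic-like cells (37.3, 25.7 and 31.0 in knockout; 38.1, 46.2 and 38.1 in control). That class joins 191 cells led by Siglech with 245 led by Dntt and Nrgn, which had a lower score for its markers. Among all genes tested, 10.7% did not overlap between genotypes in the pooled myeloid group and 9.58% in plasmacytoid dendritic-like cells. The myeloid log2 ratio of Gclm was 0.19 without knockout mouse 1 and 0.11 with neutrophil-like cells left out. The log2 fold changes of the main fits differed by 0.9923, and this difference was not tested. No group exceeded 3 mice, so no single mouse was singled out by its distance from the others.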

How the results depend on the processing

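With 3 mice a group, small differences could not be told from the spread between mice, and genes at a few CPM, such as Nqo1, were limited by counting. Over 44 member values and 635 alternatives, 581 kept their direction and side of the threshold, 7 passed the threshold only under the alternative, 0 lost it and 47 turned direction. The number of members called in cholangiocyte-like cells was 1 by DESeq2, 1 without a filter on low counts, and 0 to 1 when leaving out each library in turn. In mesothelial-like cells it was 3 by DESeq2 and 1 without the filter. The cholangiocyte-like log2 fold change of Gsta3 stayed between 0.68 and 0.92, with adjusted p from 9.5e-05 to 0.651. Without the filter 56 of 22164 genes were called in cholangiocyte-like and 235 of 22040 in mesothelial-like cells, and 86 genes, none of them members, were called in mesothelial-like cells without control mouse 1. Leaving out each library moved the myeloid log2 ratio between 0.69 and 1.94 for Gstm1 and between 0.19 and 0.83 for Gclm. The cause of these changes was not tested.

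Leaving neutrophil-like cells out of the myeloid group, an alternative chosen after seeing the data, gave -0.001485 for Txnrd1 and 0.03262 for Gstp1. In endothelial-like cells Gstm2 gave -0.01037 with doublets kept and -0.0151 at resolution 2, and Gstm1 gave -0.01449 and -0.0201. Nqo1 in whole libraries gave 0.01932 without the filter and 0.005698 with doublets kept. Leaving out 1 library gave log2 ranges that cross 0. In cholangiocyte-like cells they were -0.03345 to 0.3186 for Gstm2, -0.04825 to 0.1492 for Gclm, -0.2214 to 0.2227 for Nqo1, -0.1582 to 0.03252 for Gclc and -0.3108 to 0.1716 for Gstp1. In mesothelial-like cells they were -0.1781 to 0.01212 for Gclm, -0.6735 to 0.1287 for Hmox1 and -0.06558 to 0.1311 for Gclc. In the myeloid group they were -0.08474 to 0.3368 for Txnrd1 and -0.4173 to 0.1476 for Hmox1. In endothelial-like cells they were -0.1146 to 0.1329 for Gstm2, -0.1182 to 0.1549 for Gstm1, -0.04479 to 0.1303 for Nqo1 and -0.3366 to 0.1164 for Gstp1. In whole libraries they were -0.01015 to 0.4827 for Gstm1, -0.2927 to 0.174 for Gclm, -0.1867 to 0.1407 for Nqo1 and -0.2385 to 0.4975 for Gstp1.

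With the replicate number as a replicate block, 0 members and 2 genes were called in mesothelial-like cells, and Nqo1 in whole libraries turned to 0.005969. Deviations of same-numbered libraries correlated at -0.044, -0.008 and 0.054 in cholangiocyte-like and at -0.1799, 0.054 and -0.040 in mesothelial-like cells, at 0.104, 0.062 and -0.088 in the myeloid group, at -0.061, 0.280 and 0.081 in endothelial-like cells and at 0.167, 0.033 and 0.224 in whole libraries. In no class were all 3 above 0.1, so the numbers were not treated as a pairing. The class with the highest level of each member was compared only among hepatocyte-like, cholangiocyte-like and mesothelial-like cells and the pooled myeloid group. Among these it was the same for 10 of 10 members with doublets kept or at resolution 2. It was the same for 9 of 10 with members and pathway genes left out of the clustering. With thinning to 1000 UMIs, shares of cells with a UMI were compared among a few classes, and the highest class was the same for 9 of 10. The peaks of Nqo1 in endothelial-like, Gclc in mature dendritic-like, and Hmox1 and Txnrd1 in monocyte/macrophage-like cells were not checked by this comparison of levels. The planned hepatocyte-like test was not run with the main clustering, since only 1 library had enough cells. With members and pathway genes left out of the clustering it was run on 6 libraries, and 0 of 9 members were called. The planned term for sex was not run, since all 6 libraries were of 1 sex by their transcripts.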
